A study of Mus musculus with 9 samples.

Results

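Receptor tyrosine kinases that feed the ERK pathway were examined through 10 genes. They were taken by name and not by a rule on their values, with earlier results of these data known. They comprise 8 receptor genes (Ros1, Fgfr1, Fgfr2, Fgfr3, Fgfr4, Egfr, Erbb2 and Erbb3) and 2 genes whose products act at the receptors (Ptpn6 and Frs2). All 10 had a value among the 17148 genes measured, and all 10 were among the 12099 that passed the filter of at least 1 FPKM in at least 3 libraries. RNA selected with oligo(dT) was sequenced from the initial segment of the epididymis of C57BL/6 mice, the most proximal part of the duct, at 4 weeks of age. The 9 libraries were 3 wild type (WT), 3 with knockout of Mst1 and Mst2 (dKO) and 3 with knockout of Mst1, Mst2 and Yap (tKO), so that both mutants share the knockout of these 2 Hippo pathway kinases and tKO adds that of the transcriptional coactivator which the pathway restrains. The labels give neither the alleles nor the Cre driver, and nothing in them says that the libraries of a group came from separate animals. The p-values therefore measure the spread between these libraries, which may be technical.

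A receptor tyrosine kinase binds a ligand outside the cell, dimerises and phosphorylates its own tail, where docking and adaptor proteins gather and activate RAS, RAF, MEK and finally ERK. In the epididymis, ROS1 is known as the receptor that the initial segment needs in order to differentiate before puberty, and SHP-1, the tyrosine phosphatase encoded by Ptpn6, dephosphorylates it. FGF receptors signal through the docking protein FRS2 and choose their ligands through alternative exons, and the EGF receptor family (EGFR, ERBB2, ERBB3) works as pairs of different members.

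The libraries were first checked against their labels. Yap1 ranged from 23.2 to 26.9 FPKM among WT libraries, from 25.2 to 27.9 among dKO and from 8.33 to 8.86 among tKO. Transcripts lacking exons 4 and 5 of Stk4, the gene of Mst1, made up 0% in each WT library, from 59.4% to 68.6% in dKO and from 24.5% to 58.7% in tKO. For exons 5 and 6 of Stk3, the gene of Mst2, the share was 0% in WT, from 48.5% to 60.9% in dKO and from 36.8% to 42.2% in tKO. Transcripts of the intact genes thus remained in the mutants, and bulk RNA does not tell which cells held them. Initial segment markers were present in all libraries: the lipocalin Lcn8 was at 3675 to 5470 FPKM in WT and at 710 to 921 in dKO. The library tKO 2 stood apart in markers of other cells: it had the highest sum of 5 ciliated cell genes (69.9 FPKM, against 19.6 to 49.8 in the others), the highest sum of 9 fibroblast genes (1363 FPKM, against 631 to 807) and 7.29 FPKM of the germ cell gene Ddx4. Of 7 smooth muscle markers, 1 was called lower in dKO versus WT (2.35% of tested genes) and 1 higher in tKO versus dKO (1.24%). Their sum ran from 801 to 1218 FPKM (WT), 613 to 778 (dKO) and 691 to 1055 (tKO). The counts of calls were the same for 4 tested markers of narrow and clear cells. These summed to 59.1 to 67.2 FPKM (WT), 38.4 to 41.0 (dKO) and 47.3 to 55.8 (tKO), with no overlap. Of 6 basal cell markers 0 were called by limma in any comparison. Their sum ran from 127 to 150 FPKM (WT), 103 to 114 (dKO) and 70.3 to 105 (tKO), so both mutant groups lay below WT. The unadjusted p was under 0.05 for 2 of these basal markers in dKO versus WT (18.5% of tested genes) and for 3 in tKO versus WT (13.2%). In tKO versus dKO it was under 0.05 for 2 (16.7%). In all that follows, fewer cells of a type and less RNA per cell cannot be told apart.

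None of the 10 genes was called changed in any of the 3 comparisons (limma, Benjamini-Hochberg adjusted over the 12099 genes, threshold 0.05). In dKO versus WT 3.81% of all tested genes were called, in tKO versus WT 0.165% and in tKO versus dKO 2.11%. At an unadjusted p under 0.05 the count of the 10 was 1 in dKO versus WT (18.5% of all tested genes), 2 in tKO versus WT (13.2%) and 1 in tKO versus dKO (16.7%). The median log2 fold change of the 10 was 0.14 in dKO versus WT, beside 0.03 over all tested genes, 0.01 in tKO versus WT beside 0.04, and -0.01 in tKO versus dKO beside 0.02. In dKO versus WT the libraries of the 2 groups did not overlap for 4 of the 10 genes, each higher in dKO (Fgfr2, Egfr, Erbb2 and Erbb3), beside 27.5% of all tested genes in either direction. In tKO versus WT they did not overlap for 3 (Egfr higher, Frs2 and Erbb2 lower), beside 18.7%. In tKO versus dKO they did not overlap for 2 (Erbb2 and Erbb3, both lower), beside 22.1%. All 3 comparisons share libraries. These shares of all tested genes are also the background for the counts of the lists that follow.

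**Figure D1:**
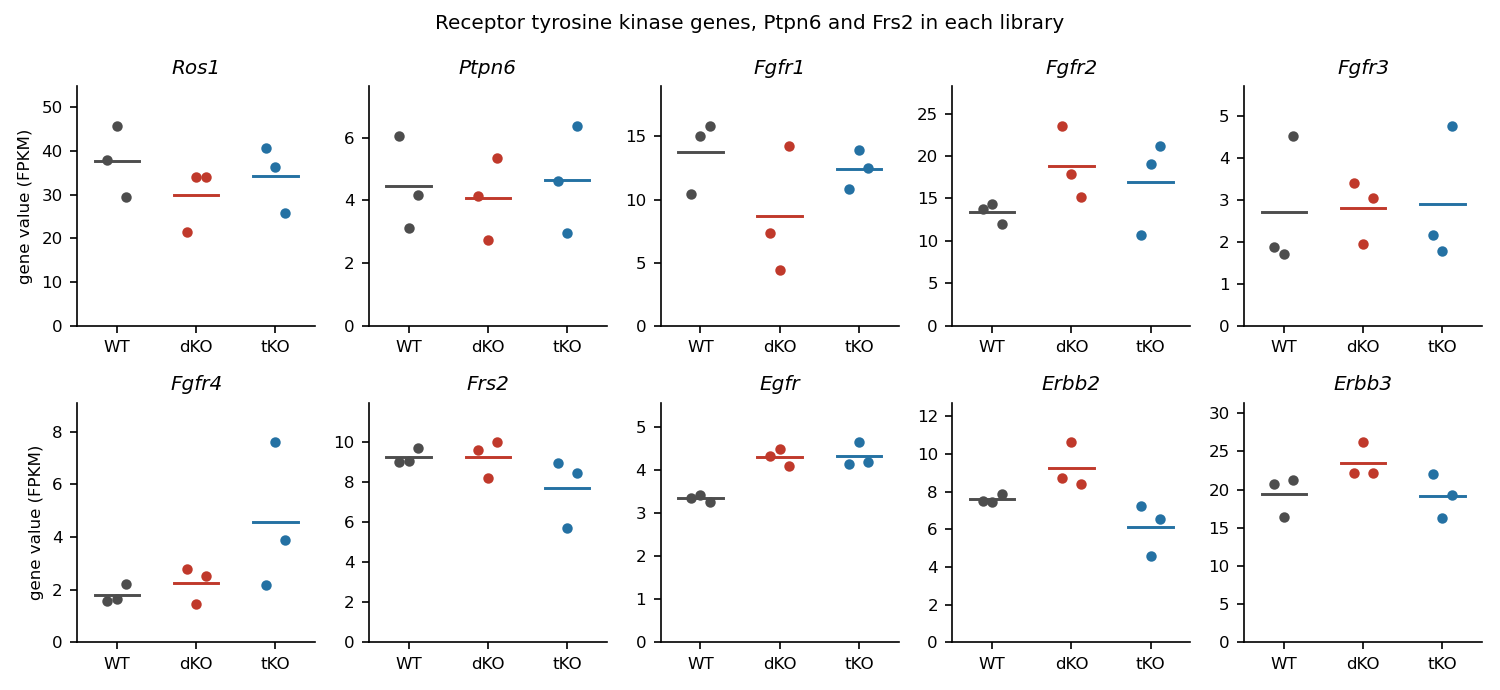
Gene value in FPKM (vertical axes, from 0) of the 10 genes in each of the 3 WT, 3 dKO and 3 tKO libraries (points), with the group mean as a line. All groups overlap one another in the panels of Ros1, Ptpn6, Fgfr1, Fgfr3 and Fgfr4. Egfr is the panel in which the WT libraries, at 3.26 to 3.43 FPKM, lie below both mutant groups.

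**Figure D2:**
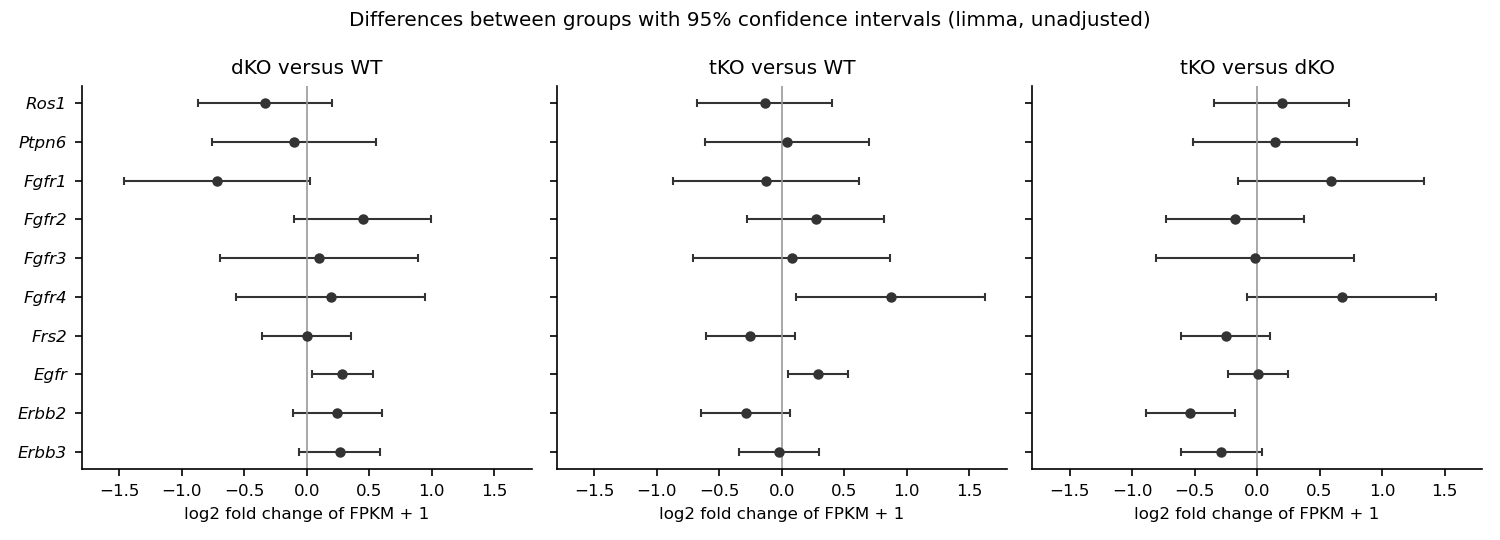
Log2 fold change of FPKM + 1 (horizontal axes) of the 10 genes in the 3 comparisons, as points with 95% confidence intervals from limma, not adjusted for the number of genes. The intervals of Egfr in both comparisons with WT, of Fgfr4 in tKO versus WT and of Erbb2 in tKO versus dKO leave out 0, and none of the 4 passed the adjusted test.

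Per kilobase of transcript, Ros1 had the highest level of the 10 in WT, at a mean of 37.7 FPKM ± 8.12 (SD, n = 3), and was second of 56 receptor tyrosine kinase genes after Pdgfra at 54.8. Erbb3 followed at 19.5 ± 2.61, then Fgfr1 at 13.8 ± 2.91, Fgfr2 at 13.4 ± 1.19, Frs2 at 9.22 ± 0.38, Erbb2 at 7.61 ± 0.24, Ptpn6 at 4.44 ± 1.47, Egfr at 3.35 ± 0.084, Fgfr3 at 2.71 ± 1.58 and Fgfr4 at 1.81 ± 0.36. The ranges of Fgfr1 and Fgfr2 overlapped, and so did those of each pair of neighbours from Ptpn6 down to Fgfr4. In tKO the order of the first 3 was Ros1, Erbb3 and Fgfr2, as in dKO, where Fgfr1 came sixth with 8.68 ± 5.02.

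Ros1 (ENSMUSG00000019893) lies on the minus strand at chr10:52045721-52195244 of GRCm38, as annotated in GENCODE M21. Its level, read at its last exon, was 37.9, 45.7 and 29.4 FPKM in WT, 21.5, 34.0 and 33.9 in dKO and 40.6, 36.3 and 25.7 in tKO. The groups overlapped: dKO 1 was the lowest library, and the other 2 dKO libraries lay within the WT range. The log2 fold change was -0.33 in dKO versus WT (SE 0.24, 95% interval -0.87 to 0.20, limma adjusted p = 0.508) and 0.20 in tKO versus dKO (SE 0.24, interval -0.34 to 0.73, adjusted p = 0.740). Over the same libraries 4 of 9 initial segment markers, a list that holds Ros1, were called lower in dKO versus WT, beside 2.35% of all tested genes, and the sum of the 9 ran from 11061 to 12372 FPKM (WT), 4760 to 6644 (dKO) and 8269 to 10334 (tKO).

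An annotated cassette exon of Ros1, at chr10:52078504-52078673, was skipped in all 9 libraries at the full level of the gene. Of 5 genes of the ROS1 ligand and its partners, 3 were tested and 0 were called by limma in any comparison, with 2, 0 and 2 at an unadjusted p under 0.05 in dKO versus WT, tKO versus WT and tKO versus dKO. The ligand from the testis, Nell2, and its relative Nell1 were at 0 in all 9 libraries. Of the genes on the list that act after NELL2 reaches the duct, the protease gene Ovch2 was at 140, 156 and 379 FPKM in WT, 91.5, 92.6 and 85.2 in dKO and 259, 235 and 207 in tKO. Its dKO libraries lay below those of both other groups, and it did not pass the test (limma adjusted p = 0.0931 in dKO versus WT).

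Ptpn6 (ENSMUSG00000004266, chr6:124720707-124738714, minus strand) was at 6.04, 3.13 and 4.16 FPKM in WT, 4.14, 2.73 and 5.34 in dKO and 4.62, 2.97 and 6.37 in tKO. The spread within each group was larger than any difference between groups, and the log2 fold changes were -0.10 in dKO versus WT (SE 0.29, limma adjusted p = 0.902) and 0.04 in tKO versus WT (SE 0.29, adjusted p = 0.969). The gene has an upstream first exon, known from epithelial cells, at chr6:124738499-124738714, and a downstream one, known from blood cells, at chr6:124732946-124733154. The upstream exon gave 78.1%, 96.3% and 99.6% of the sum of both in WT, 98.6%, 99.5% and 84.7% in dKO and 99.5%, 54.3% and 82.1% in tKO. Every library thus held more of the upstream form, with the lowest share in tKO 2. The sum of 20 markers of blood cells ran from 195 to 238 FPKM (WT), 188 to 282 (dKO) and 230 to 420 (tKO), and their part in these shares was not tested. Of 10 partners of SHP-1 in blood cells, 4 were tested and 0 were called in any comparison by limma, with 1 at an unadjusted p under 0.05 in tKO versus WT and 1 in tKO versus dKO. The most abundant of them was Pecam1, an adhesion protein that endothelium shares, at 6.51 to 10.7 FPKM over all libraries.

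The FGF receptors bind different ligands according to which of 2 mutually exclusive exons codes for the end of the third immunoglobulin domain. Exon IIIb is typical of epithelium and its product binds FGF7 and FGF10, while exon IIIc is typical of mesenchyme. Exon IIIb of Fgfr2 is shown because the shares of the epithelial form rest on its splice sites; the whole exon is in capitals.
Fgfr2 exon IIIb: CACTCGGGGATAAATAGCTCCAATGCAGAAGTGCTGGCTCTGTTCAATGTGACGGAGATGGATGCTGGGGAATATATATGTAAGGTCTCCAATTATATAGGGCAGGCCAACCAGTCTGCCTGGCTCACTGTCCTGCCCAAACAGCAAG
It lies at chr7:130199758-130199905 on the minus strand and is 148 bases long.

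Fgfr2 (ENSMUSG00000030849, minus strand, chr7:130162451-133123350, a span set by 1 long annotated transcript) was at 13.8, 14.3 and 12.0 FPKM in WT, 23.5, 17.9 and 15.2 in dKO and 10.7, 19.1 and 21.2 in tKO. All dKO libraries lay above all WT libraries, while tKO held both the lowest and a high value. In dKO versus WT it differed by 0.45 on the log2 scale (SE 0.24, 95% interval -0.10 to 1.0, limma adjusted p = 0.371). Summed over last exons in place of first exons it was -0.91, so that the direction for this gene rests on the end that is read. The deposited table carries the locus under the identifier of another gene, and it was placed on Fgfr2 by its annotated splice sites.

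Both forms of Fgfr2 were present in every library. Exon IIIb made up 65.2%, 48.2% and 25.2% of the sum of IIIb and IIIc in WT, 52.2%, 70.5% and 25.4% in dKO and 27.6%, 42.6% and 42.0% in tKO. The spread within WT and dKO was wide (SD 20.1 and 22.7 percentage points), and the groups overlapped (exact permutation test, two-sided, p = 0.7 for dKO versus WT, 0.5 for tKO versus WT and 0.5 for tKO versus dKO). The exon of the first immunoglobulin domain, at chr7:130242378-130242644, was in 37.9%, 44.9% and 34.3% of transcripts in WT, 41.9%, 55.1% and 40.7% in dKO and 14.1%, 30.1% and 31.9% in tKO. The 3 tKO libraries lay below the 3 of each other group, and the exact permutation p was 0.1 in both comparisons, the smallest that 3 against 3 allows.

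Splicing factors that act on these exons were on a list of 10, all of them tested, and 0 were called by limma in any comparison, with 1 at an unadjusted p under 0.05 in each comparison with WT and 0 in tKO versus dKO. Esrp1, an epithelial splicing factor that promotes exon IIIb, was at 18.7, 22.3 and 26.5 FPKM in WT, 19.4, 22.3 and 17.1 in dKO and 18.2, 17.4 and 18.4 in tKO. The tKO libraries were the lower, just under the lowest of WT, and lay within the range of dKO. Its relative Esrp2, named after its values were seen, was at 22.5, 19.7 and 20.1 FPKM in WT, 11.3, 16.9 and 12.0 in dKO and 19.1, 14.9 and 16.3 in tKO. Both mutant groups lay below WT without overlap, and the log2 fold change in dKO versus WT was -0.62 (SE 0.16, limma adjusted p = 0.0707), which did not pass.

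Fgfr1 (ENSMUSG00000031565, plus strand, chr8:25513654-25575718) was at 10.4, 15.0 and 15.8 FPKM in WT, 7.36, 4.45 and 14.2 in dKO and 10.8, 14.0 and 12.5 in tKO. The libraries dKO 1 and dKO 2 were the lowest of the 9, and dKO 3 lay within the WT range. The log2 fold change was -0.72 in dKO versus WT (SE 0.33, 95% interval -1.46 to 0.02, limma adjusted p = 0.287) and 0.59 in tKO versus dKO (SE 0.33, adjusted p = 0.416). Between 49.3% and 97.1% of this gene value came from the first exon of an annotated transcript with a retained intron that has no coding sequence, at chr8:25566850-25568333. That exon was at 6.54, 8.37 and 9.74 FPKM in WT, 7.15, 4.14 and 7.02 in dKO and 6.74, 8.2 and 7.87 in tKO. The coding first exon, at chr8:25518759-25519429, was at 3.07, 6.35 and 4.27 FPKM in WT and 3.95, 5.37 and 4.20 in tKO, and was listed at 0, 0 and 6.92 in dKO.

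Transcripts joined to exon IIIc, an exon of annotated coding transcripts, were at 8.57, 12.9 and 15.2 FPKM in WT, 4.39, 0.457 and 6.80 in dKO and 10.8, 13.2 and 13 in tKO. The value rests on this junction alone and does not tell where these transcripts start or whether they are coding. Every dKO library lay below every library of the other groups (exact permutation test, two-sided, p = 0.1 in both comparisons, the smallest possible). With this form as the value of the gene, chosen after its values were seen, the log2 fold change was -1.71 in dKO versus WT (limma adjusted p = 0.122) and 1.75 in tKO versus dKO (adjusted p = 0.135), and neither passed the threshold. Spliced forms with exon IIIb made up 0% to 3.66% of the sum of IIIb and IIIc of Fgfr1. Counting any form with the exon, the share was 10.6% in tKO 3 and the same as before in the other 8 libraries. Markers of fibroblasts, cells known to use this form, summed to 631 to 774 FPKM (WT), 646 to 732 (dKO) and 791 to 1363 (tKO), and 1 of the 9, Pdgfra, was called lower in dKO versus WT. Another, Col1a2, was listed below 0.05 FPKM in WT 1, WT 2 and dKO 1 and between 96.5 and 305 in the other libraries. Their part in the Fgfr1 values was not tested.

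**Figure D3:**
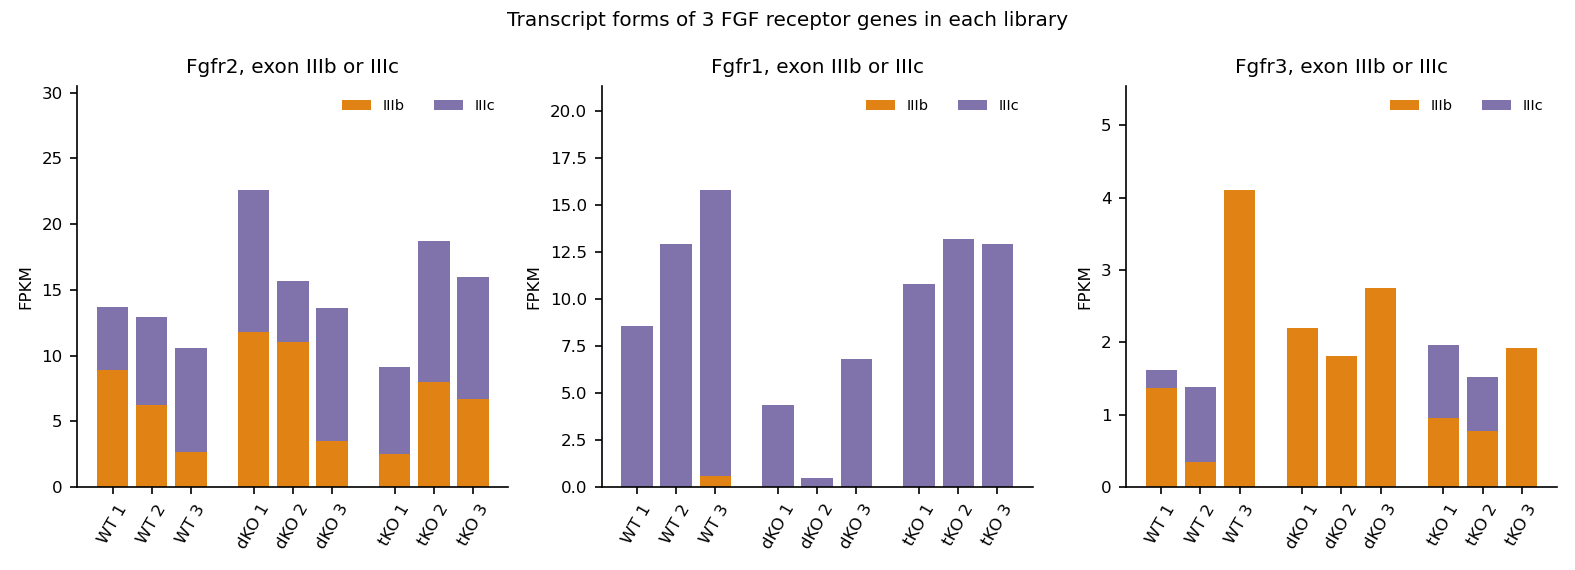
FPKM (vertical axes, from 0) of transcripts with exon IIIb and with exon IIIc of Fgfr2, Fgfr1 and Fgfr3 in each library, stacked. Fgfr2 holds both forms in all libraries, Fgfr1 is nearly all IIIc in the spliced forms, and Fgfr3 is at much lower values, mostly as IIIb in all but WT 2 and tKO 1.

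**Figure D4:**
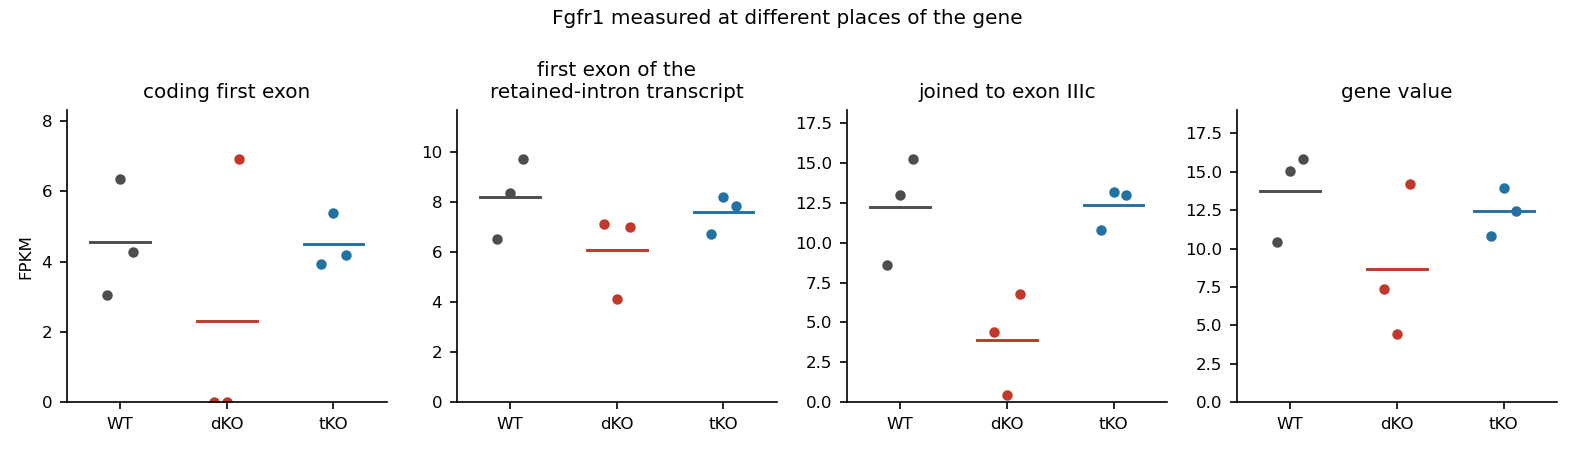
FPKM (vertical axes, from 0) of Fgfr1 at its coding first exon, at the first exon of its retained-intron transcript, in transcripts joined to exon IIIc and as the gene value, in each library (points) with group means (lines). The dKO libraries lie below all others for the IIIc form, at 0.457 to 6.80 FPKM, and overlap WT in the other panels.

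Fgfr3 (ENSMUSG00000054252, chr5:33721674-33737068, plus strand) was at 1.87, 1.72 and 4.53 FPKM in WT, 3.41, 1.96 and 3.05 in dKO and 2.16, 1.79 and 4.77 in tKO. The groups overlapped wholly, with 1 high library each in WT and tKO, and the log2 fold change in dKO versus WT was 0.10 (SE 0.35, limma adjusted p = 0.923). Its exon IIIb, at chr5:33731281-33731431, made up 84.5%, 24.9% and 100% of its forms in WT, 100% in each dKO library and 48.3%, 50.7% and 100% in tKO. At these levels a share rests on about 1 to 4 FPKM, and the groups overlapped at 100% (exact permutation p = 0.4 for dKO versus WT).

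Fgfr4 (ENSMUSG00000005320, chr13:55152640-55168759, plus strand) was at 1.56, 1.64 and 2.23 FPKM in WT, 2.78, 1.46 and 2.51 in dKO and 2.19, 7.59 and 3.88 in tKO. The library tKO 2 was the highest of the 9, tKO 3 came next, and tKO 1 lay within the WT range. In tKO versus WT the log2 fold change was 0.87 (SE 0.33, 95% interval 0.11 to 1.63, limma adjusted p = 0.333), and without tKO 2 it was 0.50 (adjusted p = 0.591). Summed ciliated cell markers had the same order of the tKO libraries, at 26.5, 69.9 and 49.8 FPKM, beside 19.8 to 22.1 in WT, and their part in the difference was not tested. The genes whose levels followed Fgfr4 most closely over the 9 libraries were Lpl, Mns1 and Rsph1, with Pearson r of 0.97, 0.96 and 0.96. MNS1 and RSPH1 are proteins of motile cilia and flagella.

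Frs2 (ENSMUSG00000020170, chr10:117069427-117148534, minus strand) was at 8.98, 9.02 and 9.67 FPKM in WT, 9.59, 8.18 and 9.96 in dKO and 8.95, 5.72 and 8.45 in tKO. The tKO libraries lay below those of WT, tKO 1 only just, and tKO 2 was the lowest. On the log2 scale it differed by -0.25 in tKO versus WT (SE 0.16, limma adjusted p = 0.525) and 0.00 in dKO versus WT (SE 0.16, 95% interval -0.36 to 0.35).

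Of 22 FGF ligands, 8 were tested and 0 were called by limma in any comparison, with 1 at an unadjusted p under 0.05 in dKO versus WT, 0 in tKO versus WT and 1 in tKO versus dKO. The ligand Fgf1, which binds all FGF receptors, was the most abundant at 15.8, 10.04 and 15.9 FPKM in WT, 12.9, 17.3 and 21.6 in dKO and 14.8, 17.9 and 18.1 in tKO. Fgf2, another broad ligand, was at 1.15 to 3.34 FPKM over the 9 libraries, and 10 of the 22 were at 0 in all of them.

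Egfr (ENSMUSG00000020122, chr11:16752203-16918158, plus strand) varied little within groups, at 3.34, 3.43 and 3.26 FPKM in WT, 4.33, 4.48 and 4.10 in dKO and 4.14, 4.64 and 4.19 in tKO. Both mutant groups lay above WT without overlap, and dKO and tKO overlapped each other. The ratio of the means was 1.29 for dKO to WT and 1.29 for tKO to WT. Fold changes on the log2 scale were 0.29 in dKO versus WT (SE 0.11, 95% interval 0.05 to 0.53, limma adjusted p = 0.191) and 0.29 in tKO versus WT (SE 0.11, interval 0.05 to 0.53, adjusted p = 0.309), and neither passed the threshold.

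Erbb2 (ENSMUSG00000062312, chr11:98412470-98437716, plus strand), the partner without a ligand of its own, was at 7.50, 7.45 and 7.89 FPKM in WT, 8.74, 10.6 and 8.39 in dKO and 7.26, 4.59 and 6.57 in tKO. The 3 groups did not overlap, with dKO the highest and tKO the lowest. The log2 fold change was 0.24 in dKO versus WT (SE 0.16, limma adjusted p = 0.462), -0.29 in tKO versus WT (SE 0.16, adjusted p = 0.462) and -0.53 in tKO versus dKO (SE 0.16, 95% interval -0.89 to -0.18, adjusted p = 0.128). Without tKO 2 the last value was -0.37 (adjusted p = 0.244). The sum of 6 epithelial markers ran from 710 to 820 FPKM (WT), 808 to 985 (dKO) and 549 to 774 (tKO), and its part in these differences was not tested.

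A large share of the Erbb2 transcripts kept intron 17, at chr11:98433050-98433130. It is the shortest of the 26 introns of the gene, at 81 bases beside a median of 231.5, and is shown with its donor and acceptor bases in capitals.
Erbb2 intron 17: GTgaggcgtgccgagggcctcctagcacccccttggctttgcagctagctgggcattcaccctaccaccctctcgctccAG
The intron was retained in 41.5%, 39.5% and 48.4% of transcripts in WT, 37.5%, 33.9% and 33.6% in dKO and 32.2%, 41.0% and 35.4% in tKO. The dKO libraries lay below those of WT, with means of 35% ± 2.2 and 43.1% ± 4.7 (SD, n = 3, exact permutation p = 0.1, the smallest possible), and tKO overlapped both. The level of the spliced form was 4.39, 4.50 and 4.07 FPKM in WT, 5.47, 7.02 and 5.57 in dKO and 4.92, 2.71 and 4.24 in tKO, while that of the retained form was 3.11, 2.94 and 3.82 in WT, 3.28, 3.6 and 2.81 in dKO and 2.33, 1.88 and 2.33 in tKO. For the retained form WT and dKO overlapped, and every tKO library lay below both (exact permutation p = 0.1 in each comparison).

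Erbb3 (ENSMUSG00000018166, chr10:128567523-128589652, minus strand), the partner with little kinase activity that binds neuregulins, was at 20.7, 16.5 and 21.2 FPKM in WT, 22.2, 26.2 and 22.1 in dKO and 22.0, 16.2 and 19.3 in tKO. The dKO libraries lay above all others, with dKO 3 close to tKO 1. On the log2 scale the difference was 0.26 in dKO versus WT (SE 0.14, 95% interval -0.06 to 0.59, limma adjusted p = 0.369) and -0.28 in tKO versus dKO (SE 0.14, adjusted p = 0.362).

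Of 10 further receptors and coreceptors of the FGF and EGF receptor families, 8 were tested and 0 were called by limma in any comparison, with 1 at an unadjusted p under 0.05 in tKO versus WT and 0 in the other two. Gpc4, a heparan sulfate proteoglycan of the cell surface, was the most abundant, at 35.3 to 112 FPKM over the 9 libraries. Erbb4 was at 0 in WT and at most 0.598 FPKM in any library.

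Among the ligands of the EGF family, 3 of 11 were tested. Tgfa, which encodes a ligand of EGFR, was at 4.73, 2.80 and 3.33 FPKM in WT, 8.26, 8.25 and 8.23 in dKO and 3.61, 4.25 and 4.67 in tKO. Every dKO library was higher than every library of the other groups, which overlapped. It rose in dKO versus WT by 1.02 on the log2 scale (SE 0.16, limma adjusted p = 0.0150, where 1.46% of all tested genes were called higher) and fell by 0.84 in tKO versus dKO (SE 0.16, adjusted p = 0.0361, where 0.868% were called lower). The first call was lost without WT 2, WT 3, dKO 2 or dKO 3 (adjusted p of 0.0518 to 0.0595), and the second in 7 of 9 fits that left out 1 library (up to 0.111).

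Nrg4, a ligand of ERBB4, was at 1.74, 1.18 and 1.33 FPKM in WT, 0.152, 0.367 and 0.12 in dKO and 1.34, 0.746 and 1.10 in tKO. It passed the filter of at least 1 FPKM in at least 3 libraries only through WT and tKO libraries. Every dKO library was below 1 FPKM, so its entry into the test depended on the groups where it was high. The dKO libraries were the lowest 3 of the 9, and the log2 fold change of FPKM + 1 in dKO versus WT was -0.99 (SE 0.20, limma adjusted p = 0.0307, where 2.35% of tested genes were called lower). The call was lost without any 1 of the 6 WT and dKO libraries (adjusted p of 0.0625 to 0.0987), with quantile normalization (0.0597) and when last exons were read (0.103). Btc, a further EGFR ligand named after its values were seen, did not pass the filter: it was at 0.369, 0.438 and 0.597 FPKM in WT, 0.931, 1.06 and 0.713 in dKO and 0, 0.0052 and 0 in tKO. The 3 groups did not overlap. Hbegf, an EGFR ligand that is shed from the cell surface, was at 3.51 to 6.20 FPKM over all libraries and was not called.

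**Figure D5:**
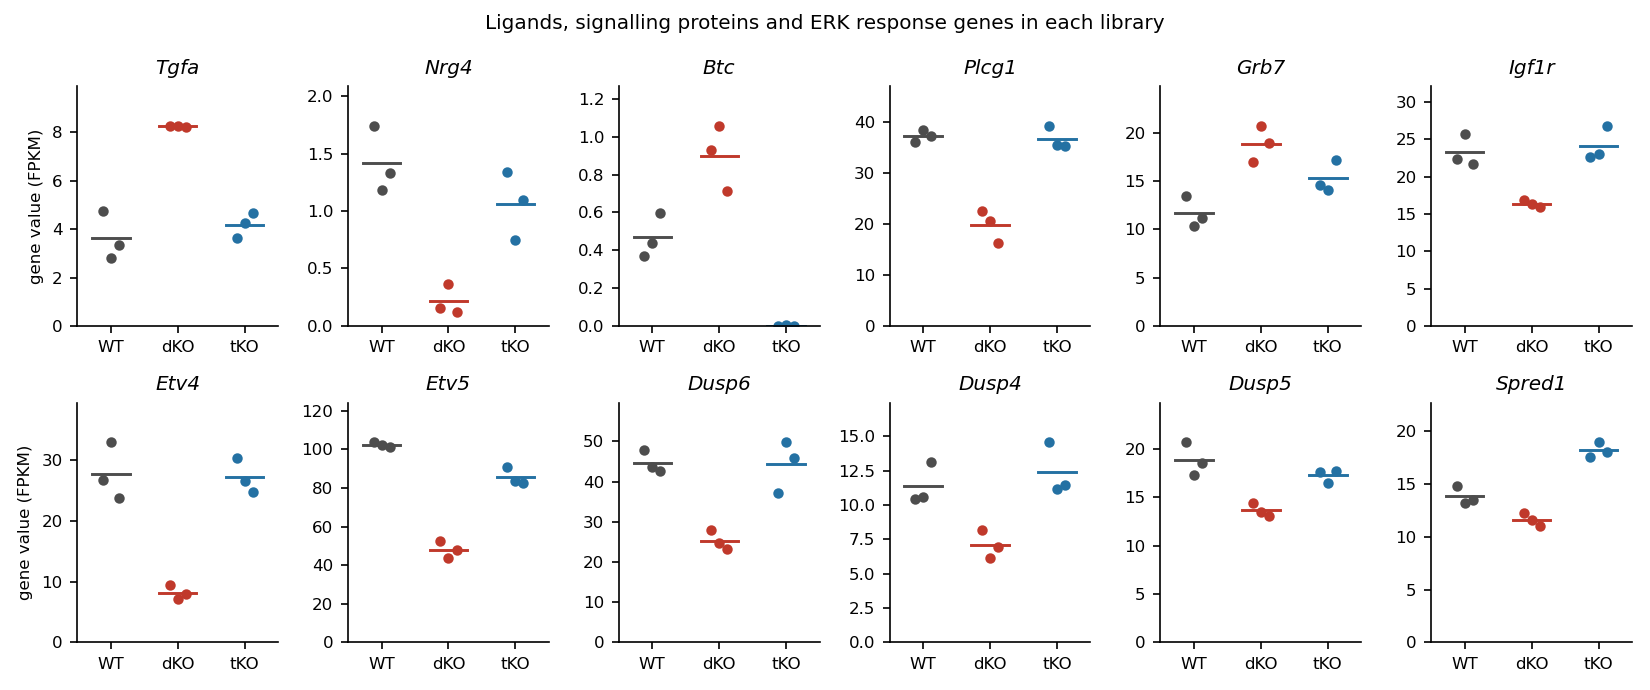
Gene value in FPKM (vertical axes, from 0) of ligands of EGF receptors (Tgfa, Nrg4, Btc), proteins at the receptor (Plcg1, Grb7), the receptor gene Igf1r and 6 ERK response genes in each library (points), with group means (lines). In dKO, Tgfa and Grb7 lie above WT, and Nrg4, Plcg1, Igf1r and the 6 response genes lie below it.

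Of 20 adaptors and regulators at the receptor, all tested, 1 rose (1.46% of all tested genes) and 1 fell (2.35%) in dKO versus WT. In tKO versus WT 0 were called by limma, with 5 at an unadjusted p under 0.05 (13.2% of all tested genes). In tKO versus dKO 1 was higher (1.24%). Plcg1, the phospholipase that binds activated receptors, was at 36.1, 38.5 and 37.4 FPKM in WT, 22.5, 20.5 and 16.2 in dKO and 39.2, 35.6 and 35.3 in tKO. It fell by 0.90 in dKO versus WT (SE 0.12, limma adjusted p = 0.0074) and was higher by 0.87 in tKO versus dKO (SE 0.12, adjusted p = 0.0105, where 1.24% of tested genes were called higher). In WT 2, 18.5 FPKM of the value came from a first exon outside the annotation that was at 0 in the other 8 libraries. Both calls held in each fit that left out 1 library. Grb7, an adaptor that binds ERBB2 and EGFR, was at 13.5, 10.3 and 11.2 FPKM in WT, 16.9, 20.7 and 19.0 in dKO and 14.6, 14.1 and 17.2 in tKO. It rose in dKO versus WT by 0.65 (SE 0.13, limma adjusted p = 0.0308), a call lost without WT 2, WT 3 or any 1 of the dKO libraries (0.0577 to 0.119).

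In the RAS-ERK cascade, 1 of 20 genes tested was called, Araf, lower in dKO versus WT by 1.16 (SE 0.19, limma adjusted p = 0.0176). Over all tested genes 2.35% were called lower, so that 1 of 20 is near the background. Araf encodes a RAF kinase. Its gene value was 81.8, 85.9 and 84.1 FPKM in WT, 39.2, 45.6 and 28.3 in dKO and 64.8, 45.1 and 43.4 in tKO. The tKO libraries also lay below those of WT and overlapped dKO. In tKO versus WT the log2 fold change was -0.73 (limma adjusted p = 0.184), which did not pass. Much of the difference between WT and dKO lay in a first exon outside the annotation, upstream of the annotated first exon. That exon was at 29.9, 43.1 and 48.6 FPKM in WT, 0, 5.34 and 12.0 in dKO and 33.3, 17.5 and 12.8 in tKO. Other first exons held a further part of the gene value. The annotated first exon was at 32.1, 23.2 and 24.2 FPKM in WT and 37.4, 40.2 and 13.2 in dKO and overlapped. The call was lost without WT 2, WT 3, dKO 1 or dKO 3 (adjusted p up to 0.0768) and when last exons were read (0.568).

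Beside the 10 genes and Erbb4, 47 receptor tyrosine kinase genes were listed, of which 31 were tested. In dKO versus WT 3 fell (2.35% of all tested genes were called lower) and 0 rose (1.46%). In tKO versus WT 0 were called by limma, with 6 at an unadjusted p under 0.05 (13.2% of all tested genes). In tKO versus dKO 2 were higher (1.24%) and 0 lower. Their median log2 fold change was -0.07 in dKO versus WT and 0.24 in tKO versus dKO. Igf1r, the receptor of insulin-like growth factors, was at 22.4, 25.7 and 21.6 FPKM in WT, 16.9, 16.3 and 16 in dKO and 22.6, 23.0 and 26.8 in tKO. It fell by 0.48 in dKO versus WT (SE 0.10, limma adjusted p = 0.0397) and was higher by 0.53 in tKO versus dKO (SE 0.10, adjusted p = 0.0390), and each call was lost in 7 of 9 fits that left out 1 library.

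Pdgfra, a receptor of fibroblasts, was at 53.7, 56.6 and 54.1 FPKM in WT, 42.3, 33.1 and 36.8 in dKO and 48.3, 50.2 and 51.0 in tKO, and fell by 0.55 in dKO versus WT (SE 0.10, limma adjusted p = 0.0221). Without WT 2, WT 3, dKO 2 or dKO 3 that call was lost (adjusted p up to 0.0961). Tie1, a receptor of endothelium, was at 3.68, 3.72 and 3.81 FPKM in WT, 2.32, 2.09 and 1.77 in dKO and 3.92, 3.57 and 3.85 in tKO. It fell by 0.63 in dKO versus WT (SE 0.12, limma adjusted p = 0.0256) and was higher by 0.65 in tKO versus dKO (adjusted p = 0.0336), calls lost in 6 and 9 of 9 fits that left out 1 library. The sum of 7 endothelial markers, Tie1 included, ran from 49.0 to 58.0 FPKM (WT), 34.9 to 45.2 (dKO) and 55.0 to 57.4 (tKO), and its part in the result was not tested.

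Genes that respond to ERK activity were followed as the readout furthest from the receptors. Of 18, 14 were tested. In dKO versus WT 4 fell (Etv4, Etv5, Dusp5 and Dusp6), beside 2.35% of all tested genes, and 0 rose. In tKO versus dKO 5 were higher (Etv4, Etv5, Dusp4, Dusp6 and Spred1), beside 1.24%, and 0 were called lower. The list did not move as one. Between dKO and tKO the libraries did not overlap for 9 genes higher in tKO and for 2 lower. Over all tested genes 22.1% did not overlap, in either direction. In tKO versus WT 0 were called by limma, with 2 at an unadjusted p under 0.05. Their median log2 fold change was -0.26 in dKO versus WT and 0.33 in tKO versus dKO, beside 0.03 and 0.02 over all tested genes. Several of them were already known to differ in these libraries when the list was made.

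Etv4, an ETS transcription factor, was at 26.8, 33.0 and 23.8 FPKM in WT, 9.46, 7.19 and 8.02 in dKO and 30.5, 26.7 and 24.9 in tKO. It fell by 1.64 in dKO versus WT (SE 0.15, limma adjusted p = 0.00086) and was higher by 1.62 in tKO versus dKO (adjusted p = 0.0017). Its relative Etv5 fell by 1.08 in dKO versus WT (SE 0.09, adjusted p = 0.00076), where WT had 101 to 104 FPKM, dKO 43.5 to 52.4 and tKO 82.8 to 91.0. All 4 of these calls held in each fit that left out 1 library.

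Dusp6, which encodes a phosphatase of ERK, had 42.7 to 47.9 FPKM (WT), 23.1 to 28.1 (dKO) and 37.3 to 49.7 (tKO). It fell by 0.80 in dKO versus WT (limma adjusted p = 0.0145), a call lost without WT 2, dKO 2 or dKO 3, and was higher by 0.78 in tKO versus dKO (adjusted p = 0.0182), lost without dKO 2, dKO 3, tKO 2 or tKO 3, with adjusted p up to 0.0687. Dusp5, another ERK phosphatase, fell by 0.43 in dKO versus WT (adjusted p = 0.0424) and Dusp4 was higher by 0.73 in tKO versus dKO (adjusted p = 0.0434). These 2 calls were lost whichever library was left out. Spred1, an inhibitor of RAS activation, was higher by 0.61 in tKO versus dKO (adjusted p = 0.0144), lost without dKO 2, dKO 3 or tKO 2 (up to 0.0578).

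The genes most like each of the 10 over the 9 libraries, among genes averaging 5 FPKM or more, are given as a description, since the libraries share their groups. Erbb3 was most like Samd10, with a Pearson r of 0.99, followed by Zfp185 and Zmiz1. Ros1 was most like Ak1 (0.98), Ndufab1 and Homer1, and Erbb2 was close to Fam83h (0.96) and Mt1. Fgfr3 was most like Zfp445 (0.97), Nfrkb and Plekhn1, Fgfr1 like Ets2 (0.96), Slc35f6 and Dpy19l4, and Ptpn6 like Ppp4r3b (0.95), Api5 and Rnf7. Egfr was most like Foxk1 (0.94), Zc3h13 and Chchd3, Fgfr2 like Resf1 (0.93), Top3b and Lima1, and Frs2 like Cyb5a (0.93), Sept7 and Pld3.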

How the data were processed

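Messenger RNA of 9 libraries was measured, 3 in each group. The deposited values are FPKM (fragments per kilobase of transcript, scaled to the mapped fragments), per the file headers, with 1 value for each end, skipped exon or retained intron of a transcript. Events at 0 are not listed. DESeq and bcl2fastq 2.17.1.14 are listed, per the submitters' processing notes, with no role stated. The sources used here give no aligner and no genome build. Splice sites of 81.5% of first-exon events and 82.4% of last-exon events met the GENCODE M21 annotation of GRCm38. There are no counts, so the depth behind a value is unknown and no counting interval can be given. The gene values, built as described below, summed to 245156 to 265823 FPKM per library.

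Events were placed on annotated genes by splice site, or by position within 5000 bases, and 15603 repeated lines were dropped. The gene value is the sum over first exons, or over last exons where that is larger, as for Ros1 and Erbb2. Log2(FPKM + 1) was tested with limma 3.58.1 (R 4.3.3, mean-variance trend) on all 9 libraries, for genes that reached 1 FPKM in 3 or more libraries. P-values were Benjamini-Hochberg adjusted over 12099 genes. A fold change on this scale understates the change of low genes. Shares of exons were compared with exact permutation tests, two-sided. The fit was tested on simulated data. Sequences were copied from GENCODE M21 transcripts with Python 3.11.15. Same-numbered libraries did not deviate together (correlation of deviations from the group means of -0.11 to 0.0097). The labels do not say what the numbers mark, and these values cannot tell whether same-numbered libraries share a litter or day.

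The 10 genes, 10 further gene lists and 10 marker lists were chosen with earlier results of these data known. The text names all 10 genes, the called genes of each list and up to 4 of each list by mean level, up to 3 of the genes most like each of the 10, and Btc. Some items are not reported here. Alternatives are given at the end.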

Additional observations from a re-analysis of the deposited data

How the results depend on the processing

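Of the 10 genes 0 were called in each comparison under 22 alternatives, leaving out each library in turn included (19 to 21 of them could be run for any 1 gene), and the smallest adjusted p of any of them was 0.0720. Over all genes the call counts moved: against 461, 20 and 255 in dKO versus WT, tKO versus WT and tKO versus dKO, leaving out 1 library gave 104 to 454, 7 to 153 and 94 to 320, and the other alternatives 235 to 463, 5 to 36 and 145 to 256. With the replicate number as a block, whose meaning the labels do not give, the counts were 235, 5 and 145, and 0 of the 10 genes were called. Of the 30 fold changes of the 10 genes, 15 kept their sign throughout. Read at last exons only, the signs turned for Ptpn6 (-0.83 in tKO versus WT, -0.48 in tKO versus dKO), Fgfr2 (-0.91, -0.17 and 0.74 in dKO versus WT, tKO versus WT and tKO versus dKO) and Frs2 (0.035 in dKO versus WT). With quantile normalization they turned for Ptpn6 and Fgfr3 in tKO versus WT (-0.051 and -0.041) and Egfr in tKO versus dKO (-0.044). Egfr turned with median-ratio scaling (-0.00095), and Fgfr1 in tKO versus WT by its IIIc form (0.037). The cause was not tested. With 1 library left out, the sign turned within these ranges. In dKO versus WT they were -0.28 to 0.10 for Ptpn6, -0.086 to 0.42 for Fgfr3 and -0.052 to 0.076 for Frs2. In tKO versus WT they were -0.30 to 0.049 for Ros1, -0.17 to 0.28 for Ptpn6, -0.24 to 0.41 for Fgfr3 and -0.13 to 0.088 for Erbb3. In tKO versus dKO they were -0.016 to 0.38 for Ros1, -0.069 to 0.38 for Ptpn6, -0.36 to 0.11 for Fgfr2, -0.34 to 0.18 for Fgfr3 and -0.036 to 0.030 for Egfr. For the share of exon IIIb they were, in percentage points, -7.42 to 15.1 (Fgfr2, dKO versus WT), -19.3 to 0.677 (Fgfr2, tKO versus WT) and -25.9 to 11.6 (Fgfr3, tKO versus WT). Counting any form with exon IIIb turned Fgfr1 to 2.21 points in tKO versus WT and 3.53 in tKO versus dKO. In the replicate block 11 calls of the named genes outside the 10 were lost (limma adjusted p of 0.0572 to 0.104): Nrg4, Grb7, Dusp5, Pdgfra, Igf1r and Tie1 in dKO versus WT, and Tgfa, Dusp4, Dusp6, Igf1r and Tie1 in tKO versus dKO. Other alternatives than leaving out a library lost the dKO versus WT calls of Araf, Nrg4, Dusp5 and Igf1r, and the tKO versus dKO calls of Tgfa, Dusp4, Dusp6, Igf1r and Tie1 (adjusted p of 0.0529 to 0.103, and 0.568 for Araf). The IIIc form of Fgfr1 was added after seeing the data. Unknown depth limits all values near 1 FPKM.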
